A study of Mus musculus with 16 samples.

Results

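The genes described here are 10 core components of the circadian clock: Arntl, Clock and Npas2, the period genes Per1, Per2 and Per3, the cryptochrome genes Cry1 and Cry2, and the clock-controlled genes Dbp and Nr1d1. They were chosen by symbol from a table of 24011 genes, and all 10 are in it. Their levels were read in 16 libraries of mouse aorta or liver, and the comparisons ask how they differ between estradiol and vehicle and between the tissues.

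All animals were wild-type female C57BL/6 mice that had been ovariectomized at 6 to 7 weeks of age, which removes the main source of circulating estrogen. Aorta and liver were taken 1 week after surgery and held in culture medium at 37 °C for 4 h, with estradiol (E2) at 10 nM or with ethanol, its vehicle. The 4 groups of 4 libraries were aorta with E2, aorta with ethanol vehicle, liver with E2 and liver with ethanol vehicle. The liver samples came from the tip of the major lobe, and every group shares the ovariectomy and the time in culture. Per the labels, samples 1 to 8 started from 50 ng of RNA and the Ovation kit, and samples 9 to 16 from 600 ng, taken from 1 aorta or 1 liver fragment each, and TruSeq poly-A selection. The series text gives 2 replicates of 4 mice each per condition, which does not match the unpooled TruSeq samples. The hour of day at which tissue was collected is not given in the sources used here.

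The columns of the count table carry a suffix, o1, o2, n1 or n2, that no label explains, and libraries are called by it here. No source used here says whether the letters o and n mean the kits, and kit, animals, sequencing run and collection cannot be told apart in it. Total counts per library were 6471319 to 16905441 for E2-treated aorta and 6042073 to 19823982 for aorta in vehicle, and 3896733 to 11796977 for E2-treated liver and 5210693 to 13078032 for liver in vehicle. Among the liver o libraries, 25.7% to 34.5% of counts were Rn45s, a precursor of ribosomal RNA, against no more than 6.20% in any other library. Smooth muscle markers (8 genes) summed to 9924 to 31235 CPM in aorta with E2 and 10607 to 20101 CPM in aorta with vehicle, and to 171 to 475 CPM over the liver libraries. Hepatocyte markers (8 genes) summed to 64750 to 183957 CPM in liver with E2 and 68913 to 122990 CPM in liver with vehicle, and to 31.8 to 408 CPM over the aorta libraries, so both tissues carried the markers of their label. Levels are given as CPM, counts scaled to 1e6 reads on library sizes normalised by the TMM method over all 16 libraries.

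The mammalian clock is a transcriptional feedback loop that most cells carry. BMAL1, the product of Arntl, pairs with CLOCK or with its relative NPAS2 and activates genes through E-box sequences. Among these genes are the Per and Cry genes, whose proteins return to the nucleus and repress their own activators, and Nr1d1, whose product REV-ERB-alpha represses Arntl through elements shared with the ROR receptors. Dbp, also driven by E-boxes, encodes a transcription factor that binds D-boxes. In liver and in the vessel wall these genes are known to cycle over the day, with Arntl near its peak when Nr1d1 and Dbp are low.

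Start-site windows were taken from RefSeq (GRCm38.p6), each reaching from 250 bases before to 50 bases after an annotated start. They covered 9 of the 10 genes in 13 windows, with more than 1 start for Arntl, Clock and Per1. The windows were searched on both strands for the E-box CACGTG, the D-box TTATGTAA and its variant TTATGCAA, the ROR element cores TAGGTCA and TGGGTCA, and the cAMP element TGACGTCA. The 4 windows with a match are printed 5′ to 3′ on the gene's strand, because they hold the letters through which the loop is described; capitals mark each match, and positions count from the start site.
Per1 (chr11:69098699-69098998, + strand): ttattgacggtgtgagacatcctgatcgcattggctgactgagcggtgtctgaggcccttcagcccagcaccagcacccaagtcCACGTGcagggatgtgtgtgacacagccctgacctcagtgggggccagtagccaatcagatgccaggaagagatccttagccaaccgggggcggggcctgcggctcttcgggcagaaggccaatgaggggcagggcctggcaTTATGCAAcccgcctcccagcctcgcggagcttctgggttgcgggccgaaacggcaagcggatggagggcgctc
Cry1 (chr10:85185005-85185304, − strand): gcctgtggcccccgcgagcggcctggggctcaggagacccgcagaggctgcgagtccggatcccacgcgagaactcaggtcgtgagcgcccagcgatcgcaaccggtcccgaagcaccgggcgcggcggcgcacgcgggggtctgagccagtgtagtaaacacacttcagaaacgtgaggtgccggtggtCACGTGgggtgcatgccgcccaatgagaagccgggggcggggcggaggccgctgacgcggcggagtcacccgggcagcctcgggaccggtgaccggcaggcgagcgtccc
Per3 (chr4:151044616-151044915, − strand): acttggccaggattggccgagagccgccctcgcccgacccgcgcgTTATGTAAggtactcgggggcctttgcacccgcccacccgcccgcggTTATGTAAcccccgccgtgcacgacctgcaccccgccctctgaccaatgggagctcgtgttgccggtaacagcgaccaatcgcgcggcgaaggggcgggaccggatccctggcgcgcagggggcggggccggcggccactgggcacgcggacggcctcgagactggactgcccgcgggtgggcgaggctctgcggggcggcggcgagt
Arntl (chr7:113207261-113207560, + strand): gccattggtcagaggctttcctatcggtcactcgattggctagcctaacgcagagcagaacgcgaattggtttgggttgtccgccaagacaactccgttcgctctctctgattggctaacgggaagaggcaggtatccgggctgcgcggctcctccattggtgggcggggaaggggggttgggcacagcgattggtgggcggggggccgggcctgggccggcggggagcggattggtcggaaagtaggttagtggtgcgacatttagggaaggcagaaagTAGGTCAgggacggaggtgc
Per1 held an E-box at −166 and the D-box variant at −24, Cry1 held an E-box at −60, and Per3 held D-boxes at −205 and −158. Arntl held the core TAGGTCA at 31, in 1 of its windows. Over all 32851 windows of this length the E-box was in 7.15%, TTATGTAA in 0.938%, TTATGCAA in 0.743%, TAGGTCA in 2.61%, TGGGTCA in 3.98% and TGACGTCA in 1.79%. A match describes the letters alone, and the other windows of these genes held none of the 6 motifs.

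Between genes, levels are comparable only per length, here as CPM per kilobase of merged exons in the GENCODE M21 annotation. On that scale Nr1d1 was the highest clock gene in every group, at 231 ± 98.4 CPM per kb in aorta with E2, 245 ± 76.6 in aorta with vehicle, 57.6 ± 39.9 in liver with E2 and 63.4 ± 56.2 in liver with vehicle (SD, n = 4). Its lowest library in each group exceeded the highest library of the other 9 genes in that group. Arntl and Per1 came next, with overlapping ranges, at 31.3 ± 8.30 and 18.9 ± 5.88 CPM per kb in aorta with E2. Per3 was the lowest in every group, with means from 0.318 to 0.984 CPM per kb. Between these ends the ranges of genes next to each other in the order overlapped, so that order is not resolved by these libraries. Counts behind the levels ran down to 4 reads for Per3 and 7 for Clock, both in liver with E2, library n2.

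**Figure D1:**
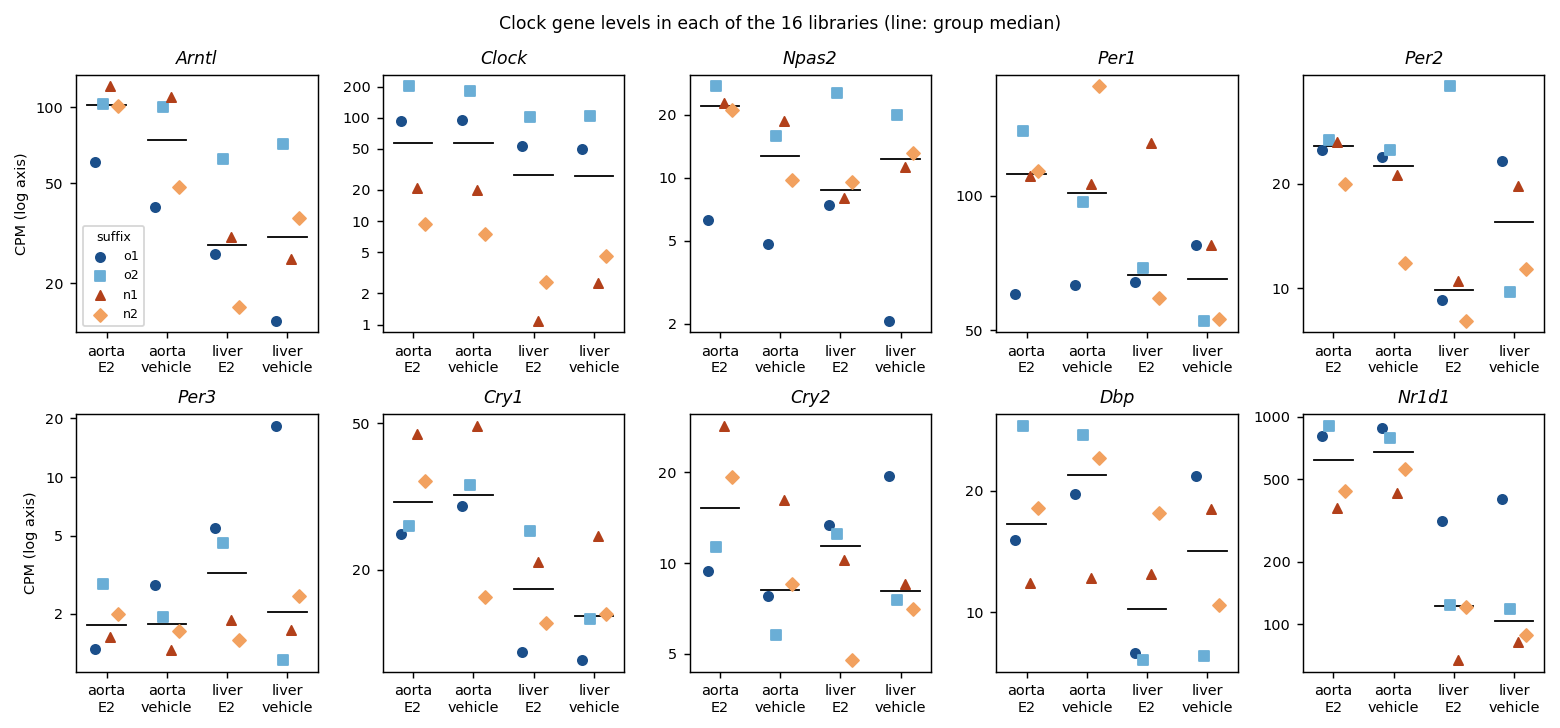
Level of each clock gene in CPM (log axis) in every library, by group, with the suffix of the library as symbol and the group median as a line. Clock splits by suffix letter in every group, with n libraries at 1.09 to 21.0 CPM and o libraries at 50.2 to 201 CPM, and Nr1d1 is higher in aorta than in liver.

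No clock gene passed the threshold for E2 in aorta, where 0% of the 13698 genes tested passed it (edgeR's quasi-likelihood test, Benjamini-Hochberg adjusted p under 0.05). Of the 10 clock genes, 6 were higher and 4 lower with E2, with a median log2 fold change of 0.071, beside −0.0083 over all genes tested. The smallest adjusted p over all genes was 0.0898, and 495 genes had an unadjusted p under 0.05, of which 2 were clock genes, Cry2 and Npas2. The E2 and the vehicle libraries of each of the 10 genes overlapped. The share of all genes that overlapped was not counted. Each group mixes o and n libraries, so for a gene that splits by letter, such as Clock, this overlap says little about E2.

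Cry2, a cryptochrome that represses the CLOCK and BMAL1 pair, stood at 9.38, 11.3, 28.6 and 19.3 CPM in aorta libraries o1, o2, n1 and n2 with E2, against 7.76, 5.76, 16.2 and 8.51 CPM with vehicle. It was higher with E2 in each of the 4 suffixes, by 0.24, 0.86, 0.79 and 1.09 on the log2(CPM + 1) scale, while the n libraries were above the o libraries within each treatment. The fitted log2 fold change was 0.80 ± 0.25 (SE), with an unadjusted p of 0.0118 and an adjusted p of 1.00 in edgeR's quasi-likelihood test. Npas2, which encodes the partner of BMAL1 that can stand in for CLOCK, had 6.30, 27.4, 22.8 and 21.1 CPM with E2 against 4.79, 15.8, 18.7 and 9.72 CPM with vehicle. It too was higher with E2 in 4 of 4 suffixes, although o1 lay below all other aorta libraries in both treatments. Its log2 fold change was 0.61 ± 0.22, with an unadjusted p of 0.0197 and an adjusted p of 1.00 by edgeR.

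Arntl, the partner shared by CLOCK and NPAS2, had 60.7, 103, 121 and 101 CPM with E2 and 40.1, 100.01, 110 and 48.5 CPM with vehicle in aorta. The difference came mostly from suffixes o1 and n2, at 0.59 and 1.05 in log2(CPM + 1), while o2 and n1 differed by 0.046 and 0.14. Per2, a period gene, was higher with E2 in 4 of 4 suffixes as well, by at most 0.71. Of all 14190 genes, 7.41% were higher with E2 in each of the 4 aorta suffixes, as 4 of the 10 clock genes were. The fitted log2 fold changes were 0.40 ± 0.23 for Arntl and 0.28 ± 0.21 for Per2. Clock differed by 0.10 ± 0.31, Per1 by −0.084 ± 0.24, Per3 by 0.038 ± 0.37 and Cry1 by −0.0029 ± 0.29. Cry1 changed its sign under several other settings, so it has no direction here. The clock outputs Dbp and Nr1d1 were lower with E2 in 3 of 4 suffixes each, with log2 fold changes of −0.24 ± 0.28 and −0.17 ± 0.19.

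With the suffix as a replicate block, which compares each E2 library with the vehicle library of its suffix, 12 genes passed in aorta and none was a clock gene. The blocked log2 fold changes were 0.82 ± 0.19 for Cry2, 0.65 ± 0.18 for Npas2 and 0.43 ± 0.16 for Arntl, with adjusted p of 0.235, 0.452 and 0.702 (edgeR's quasi-likelihood test). Over all 19 alternative settings the adjusted p of Cry2 ran from 0.181 to 1.00 and that of Npas2 from 0.366 to 1.00. Markers of other cell types moved beside these values, and none passed the threshold. All 6 tested hepatocyte markers were lower with E2 in aorta (median log2 fold change −0.87), as were all 7 lymphocyte markers (median −1.98). All 3 tested macrophage markers were lower too (median −0.11), while smooth muscle, endothelial and adipocyte markers went both ways. The hepatocyte sum was 31.8 to 177 CPM with E2 and 56.9 to 408 CPM with vehicle. No hepatocyte or lymphocyte marker was at 0 in a whole group. The lymphocyte sum was 20.8, 27.7, 14.8 and 9.70 CPM in libraries o1, o2, n1 and n2 with E2 and 11.1, 84.6, 10.2 and 134 CPM with vehicle. It was thus lower with E2 in o2 and n2 and higher in o1 and n1. What part these markers have in the values of the clock genes was not tested. In such bulk tissue, fewer lymphocytes and less RNA per lymphocyte cannot be told apart. Where the hepatocyte marker reads of aorta came from was not tested.

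**Figure D2:**
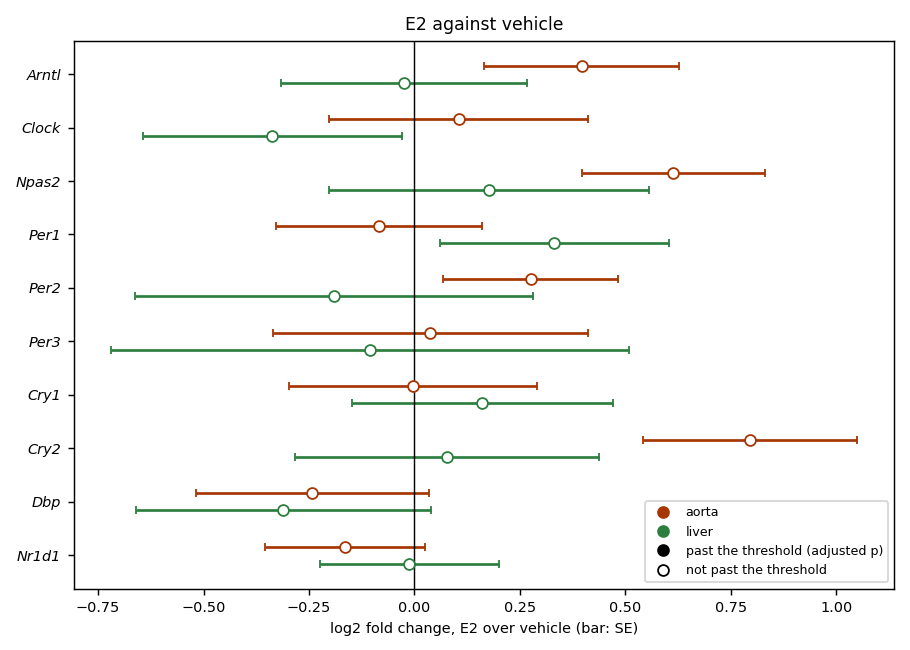
Log2 fold change of E2 over vehicle for each clock gene in aorta and liver (points), with the SE as bars; open points did not pass the threshold. In aorta Cry2 (0.80) and Npas2 (0.61) lie farthest from 0, and every point is open.

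In liver no clock gene passed either, and 0% of the 11726 genes tested did (edgeR's quasi-likelihood test, adjusted p under 0.05). None of the 10 clock genes had an unadjusted p under 0.05, against 502 of all genes, and adjusted p of the 10 ran from 0.940 to 0.997. There 4 were higher and 6 lower with E2, with a median of −0.019 beside −0.0053 over all genes. No clock gene moved the same way in all 4 suffixes, but the share of all genes that did was not counted in liver. It is thus no measure of a difference from aorta.

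Per2 had 9.27, 38.2, 10.5 and 8.07 CPM in liver libraries o1, o2, n1 and n2 with E2 and 23.3, 9.78, 19.7 and 11.3 CPM with vehicle. Library o2 was the highest with E2 and the lowest with vehicle, and the log2 fold change was −0.19 ± 0.47. Per1, the period gene that also responds quickly to hormones and cAMP, had 64.1, 69.0, 131 and 59.1 CPM with E2 and 77.6, 52.6, 77.5 and 53.0 CPM with vehicle. It was higher in 3 of 4 suffixes, most in n1, at 0.33 ± 0.27. Clock differed by −0.34 ± 0.31, Dbp by −0.31 ± 0.35, Npas2 by 0.18 ± 0.38, Cry1 by 0.16 ± 0.31, Per3 by −0.10 ± 0.61 and Cry2 by 0.077 ± 0.36. Arntl (−0.025 ± 0.29) and Nr1d1 (−0.012 ± 0.21) changed sign with the choice of size factors and have no direction. Every other clock gene also changed sign under at least 1 alternative setting, Per2 in 8 of 19 and Per3 in 6 of 18. Their directions in liver are thus not settled either. Cell type markers moved in liver too, and none passed. With E2, 6 of 6 tested lymphocyte markers (median −0.63), 5 of 5 macrophage markers (−0.53) and 5 of 6 endothelial markers (−0.33) were lower. Hepatocyte markers were higher in 7 of 8 (0.21) and smooth muscle markers in 5 of 7 (0.071). Their part in the values of the clock genes was not tested.

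The E2 effect in aorta minus that in liver was an interaction term fitted to all 16 libraries, and 0% of 14190 genes passed (edgeR's quasi-likelihood test). Over all genes, 761 had an unadjusted p under 0.05 and the smallest adjusted p was 0.218. Cry2 had the widest gap among the clock genes, at 0.71 ± 0.46 with an adjusted p of 0.875. Per1 stood at −0.41 ± 0.42 and the other 8 between −0.16 and 0.47, with an SE of 0.28 to 0.76. The Cry2 and Npas2 values of aorta are thus not shown to differ from those of liver.

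Between the tissues, 3 clock genes were called higher in aorta than in liver: Nr1d1, Clock and Arntl. The same 3 passed in the vehicle libraries and in the E2 libraries, and no clock gene was called lower. These are separate libraries, but those with a common suffix may be related, so the fits may not be independent repeats. The call needed an adjusted p under 0.05 and a log2 fold change beyond 1. In vehicle libraries 24.1% of 12607 genes passed as higher and 23.4% as lower in aorta, and in E2 libraries 26.3% of 13061 passed as higher and 22.0% as lower, so 3 of 10 is near the share of all genes that were higher. Without the suffix batch as a covariate none of the 3 passed, with adjusted p from 0.0715 to 0.706. Markers of other cell types also differed between the tissues. All 6 adipocyte markers were called higher in aorta, with a median log2 fold change of 8.04 in E2 libraries and 6.47 in vehicle libraries, and summed to 2025 to 4470 CPM over the aorta libraries and 58.4 to 262 CPM over the liver libraries. Of 5 macrophage markers, 3 in E2 libraries and 4 in vehicle libraries were called lower in aorta (medians −1.73 and −1.91), with sums of 57.0 to 216 CPM in aorta and 158 to 729 CPM in liver. The part of these cell types in the values of the clock genes was not tested.

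Nr1d1, the gene of the repressor REV-ERB-alpha, had 805, 909, 365 and 438 CPM in aorta libraries o1, o2, n1 and n2 with E2, against 315, 123, 67.3 and 121 CPM in liver with E2. With vehicle it had 884, 795, 432 and 559 CPM in aorta and 401, 118, 81.9 and 89.2 CPM in liver. Every aorta library lay above every liver library of its treatment, although the highest liver library, o1 with vehicle, exceeded the lowest aorta library of the E2 group. The log2 fold change of aorta over liver was 2.15 ± 0.37 in E2 libraries and 2.19 ± 0.35 in vehicle libraries, with adjusted p of 0.000993 and 0.000251 (edgeR's quasi-likelihood test). Within letters it was 1.95 (n) and 2.00 (o) with E2 and 2.43 (n) and 1.83 (o) with vehicle. Thra, which encodes a thyroid hormone receptor on the opposite strand, overlaps 9.67% of the exon bases of Nr1d1. It was itself higher in aorta, by 1.85 ± 0.32 in E2 libraries and 1.63 ± 0.27 in vehicle libraries, at 135 ± 32.3 and 110 ± 22.2 CPM in aorta with E2 and vehicle. The strand setting of the counting is not known, so reads from the overlap cannot be assigned to either gene.

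Arntl had 26.2, 62.6, 30.6 and 16.1 CPM in liver libraries o1, o2, n1 and n2 with E2, below the aorta libraries of the same suffix, which are given above. With vehicle the liver values were 14.2, 71.6, 24.9 and 36.5 CPM, again each below the aorta library of its suffix. The ranges of the tissues nevertheless overlapped, because o2 was high in liver. The log2 fold change was 1.61 ± 0.43 in E2 libraries and 1.10 ± 0.34 in vehicle libraries, with adjusted p of 0.0112 and 0.0189 (edgeR). The vehicle call rested on few libraries. It was lost without liver library o1 (adjusted p 0.0610) or aorta library o1 (0.0588, edgeR). These are nearly the same exclusion, since o1 has its own batch term and the library left over adds nothing to the estimate. The same holds for o1 and o2 in the tissue comparisons below. The vehicle call was also lost without liver n1 (0.0584) or aorta n1 (log2 fold change 0.80). The E2 call was lost without liver library n1 (adjusted p 0.0548). Over all 18 alternatives the adjusted p of Arntl ran from 0.000175 to 0.0938 in E2 libraries and from 0.00297 to 0.297 in vehicle libraries. In the n libraries alone the difference was 2.06 with E2 and 1.23 with vehicle, and in the o libraries alone 0.84 and 0.83, below the fold threshold.

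Clock had 93.8, 201, 21.0 and 9.40 CPM in aorta libraries o1, o2, n1 and n2 with E2 and 53.2, 101, 1.09 and 2.57 CPM in liver with E2. With vehicle it had 94.6, 179, 19.8 and 7.52 CPM in aorta and 50.2, 105, 2.55 and 4.60 CPM in liver. Each aorta library was above the liver library of its suffix, while liver o2 lay above aorta o1, so the tissues overlapped. The log2 fold change was 1.89 ± 0.56 in E2 libraries and 1.26 ± 0.39 in vehicle libraries, with adjusted p of 0.0183 and 0.0167 (edgeR). It was 3.13 (n) and 0.80 (o) with E2, and 1.79 (n) and 0.73 (o) with vehicle, so the o libraries alone stayed under the fold threshold. The E2 call was also lost with no filter on low counts (adjusted p 0.0551) and without liver n1 (0.0843) or liver n2 (0.0581), and the vehicle call without liver n1 (0.0514) or aorta n1 (log2 fold change 0.88). Over the alternatives its adjusted p ran from 0.00101 to 0.657 in E2 libraries and from 0.000840 to 0.706 in vehicle libraries.

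Cry1, the other cryptochrome, was higher in aorta in 8 of 8 matched libraries of the same treatment and suffix, as were Arntl, Clock and Nr1d1 and 26.8% of all 14190 genes, but did not pass. It stood at 33.2 ± 9.98 CPM in aorta and 18.2 ± 6.18 CPM in liver with E2, and at 32.5 ± 13.4 CPM in aorta and 16.5 ± 5.75 CPM in liver with vehicle (SD, n = 4). The log2 fold changes were 0.88 ± 0.38 and 0.93 ± 0.37, with adjusted p of 0.0773 and 0.0542 (edgeR). Without aorta or liver library o2 in E2 libraries, and without aorta n2 or liver n1 in vehicle libraries, it passed, with adjusted p from 0.0133 to 0.0434. It also passed in n libraries alone with E2 (adjusted p 0.0150), and with vehicle in o libraries alone (0.0174), with no filter on low counts (0.0187) and without Rn45s (0.0310). Per2 stood at 0.90 ± 0.45 in E2 libraries and 0.32 ± 0.36 in vehicle libraries, and also passed with E2 when aorta or liver library o2 was left out and in n libraries alone (1.14, adjusted p 0.0130). Per1 stood at 0.35 ± 0.37 and 0.66 ± 0.35, and passed with vehicle when aorta or liver library o1 was left out (adjusted p 0.0326 and 0.0341, edgeR).

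Per3, the least abundant period gene, was the only clock gene with a lower point estimate in aorta under both treatments, at −0.64 ± 0.53 and −0.81 ± 0.60, and did not pass. Its single liver library o1 with vehicle held 18.4 CPM, where the other liver libraries held 1.16 to 5.45 CPM. Without suffix o1 in both tissues, an alternative added after the data were seen, the differences were −0.22 ± 0.55 and −0.039 ± 0.61. Dbp, the D-box factor, ranged from 11.8 to 29.1 CPM in aorta and 7.62 to 17.6 CPM in liver with E2, and from 12.2 to 27.6 CPM in aorta and 7.78 to 21.7 CPM in liver with vehicle. It stood at 0.74 ± 0.41 and 0.54 ± 0.41, and Npas2 at 0.67 ± 0.41 and 0.18 ± 0.39. In E2 libraries Dbp passed in o libraries alone (1.35, adjusted p 0.0175, edgeR) but stood at −0.13 in n libraries alone, while Npas2 passed in n libraries alone (1.20, adjusted p 0.00960) but stood at −0.15 in o libraries alone. Cry2 was at 0.65 ± 0.53 in E2 libraries and −0.16 ± 0.44 in vehicle libraries, and had no stable sign, although it passed in n libraries alone with E2 (1.43, adjusted p 0.00976, edgeR). The median over the 10 genes was 0.81 in E2 and 0.60 in vehicle libraries, beside 0.16 and 0.054 over all genes tested. Dbp shares 29.3% of its exon bases with Sphk2, a sphingosine kinase gene on the opposite strand, which was lower in aorta by −0.98 ± 0.32 and −1.22 ± 0.27.

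**Figure D3:**
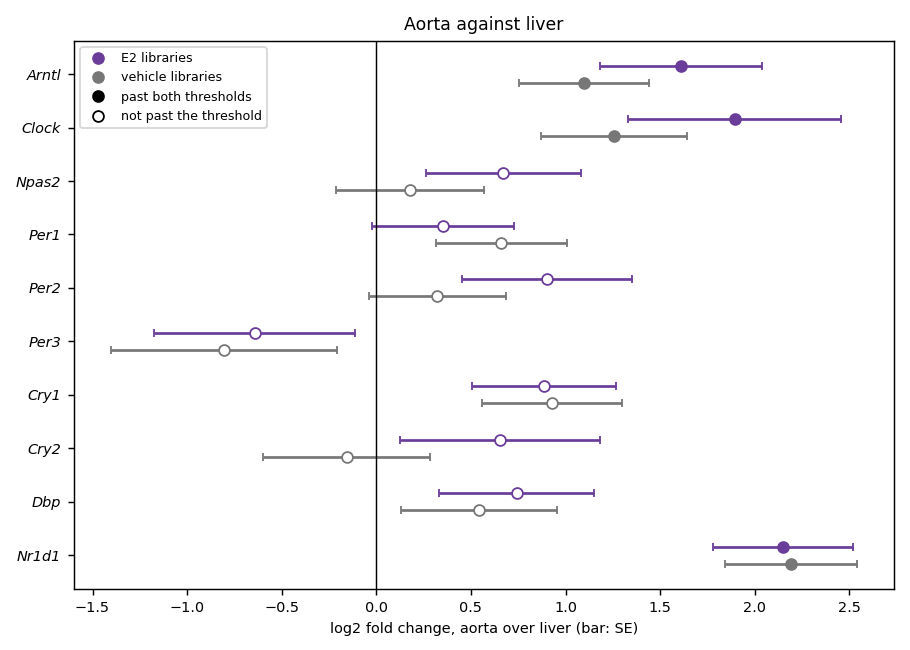
Log2 fold change of aorta over liver for each clock gene in the E2 libraries and in the vehicle libraries (points), with the SE as bars; filled points passed both thresholds. Arntl, Clock and Nr1d1 are filled in both sets, Nr1d1 at 2.15 and 2.19, and Per3 lies below 0 in both.

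Clock, whose product is the histone acetyltransferase partner of BMAL1, split by suffix letter. In aorta the n libraries held 7.52 to 21.0 CPM and the o libraries 93.8 to 201 CPM, and in liver the n libraries held 1.09 to 4.60 CPM and the o libraries 50.2 to 105 CPM. The log2 fold change of n over o was −3.26 ± 0.39 in aorta and −4.95 ± 0.39 in liver, with adjusted p of 1.91e-05 and 4.58e-09 (edgeR's quasi-likelihood test), or 9.57-fold and 30.8-fold lower. These tests counted every library as independent, including those with a common suffix, so their p-values may be too small. The letters did not overlap in either tissue. Npas2, its relative, did not share this, at 0.45 ± 0.42 in aorta and −0.42 ± 0.50 in liver. The log2 ratio of Clock over Npas2 reads ran from −2.81 to 0.083 in the n libraries and from 1.99 to 4.52 in the o libraries. Clock has the longest merged exons of the 10 genes, at 9.925 kb, and whether length has a part in this split was not tested.

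Other clock genes passed with the letter too, under the same limit on the p-values. In aorta Cry2 was higher in n libraries, at 1.08 ± 0.26 with an adjusted p of 0.00330 (edgeR), and Nr1d1 was lower by −0.88 ± 0.21 with an adjusted p of 0.00274, under the fold threshold. The n libraries of Nr1d1 in aorta, at 365 to 559 CPM, lay below its o libraries, at 795 to 909 CPM. The Cry2 call was lost without aorta n1 with E2 (log2 fold change 0.89) or with vehicle (0.91). In liver Nr1d1 was lower in n libraries by −1.52 ± 0.37 and Per3 by −1.96 ± 0.68, with adjusted p of 0.00135 and 0.0139 (edgeR). Without suffix o1 in both treatments these became −0.49 ± 0.26 for Nr1d1 and −0.49 ± 0.74 for Per3, and neither passed, while Arntl (−1.34 ± 0.30) and Npas2 (−1.18 ± 0.35) then passed as lower in n libraries. Over all genes 33.0% passed as higher and 28.1% as lower in n libraries of aorta, out of 13698, and 33.7% and 35.7% of 11726 in liver. Of the 10 clock genes, 1 passed as higher and 1 as lower in aorta, and 0 as higher and 3 as lower in liver. In liver the 3 of 10 are thus near the share of all genes that were lower. Such small counts do not set the clock genes apart from all genes. The median over all genes was 0.13 in aorta and −0.080 in liver.

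**Figure D4:**
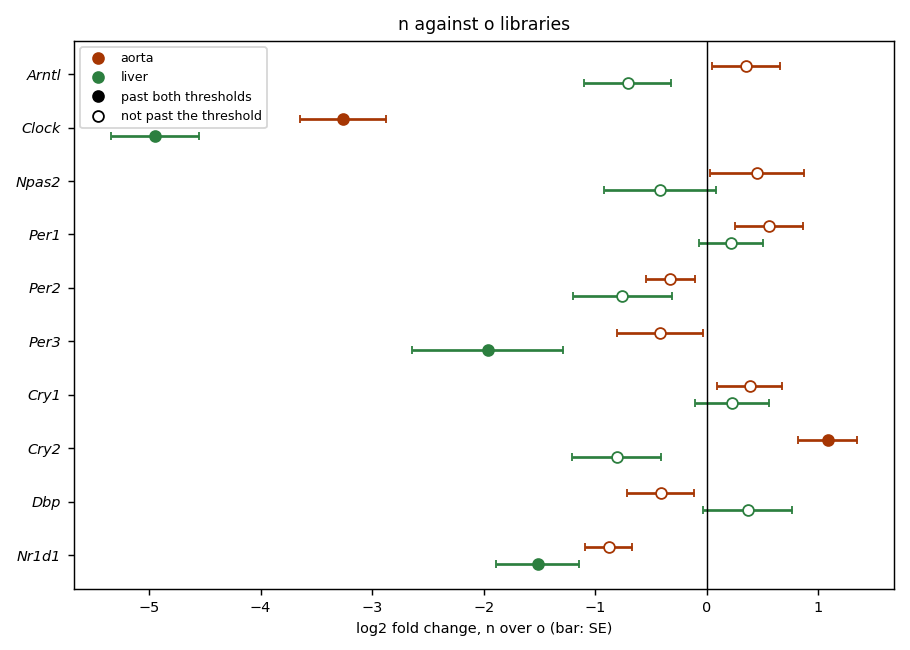
Log2 fold change of n over o libraries for each clock gene in aorta and in liver (points), with the SE as bars; filled points passed both thresholds. Clock lies at −3.26 in aorta and −4.95 in liver, and no other clock gene lies beyond −1.96.

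Within the o libraries, library o2 was above library o1 in 4 of 4 groups for 4 of the 10 genes, Arntl, Clock, Npas2 and Cry1, where 22.4% of 14190 genes did the same. The other 6 genes were above in 1 to 3 groups. The widest gaps above 0 were in liver with vehicle, at 2.77 for Npas2 and 2.25 for Arntl in log2(CPM + 1). In that group Clock (1.05) and the repressor gene Cry1 (0.34) were higher in o2 too, while Per3 (−3.17), Nr1d1 (−1.75), Dbp (−1.37), Cry2 (−1.25), Per2 (−1.17) and Per1 (−0.55) were lower. No test is possible between single libraries.

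Ratios of reads within a library need no scaling between libraries. The log2 ratio of Arntl over Nr1d1 reads was −3.73, −3.14, −1.59 and −2.11 in aorta libraries o1, o2, n1 and n2 with E2 and −4.46, −2.99, −1.97 and −3.53 with vehicle. In liver it was −3.58, −0.98, −1.14 and −2.89 with E2 and −4.80, −0.72, −1.71 and −1.29 with vehicle. Library o1 was the lowest of its group in each of the 4 groups. The ratio of Arntl over Per3 likewise was lowest in o1 of liver with vehicle, at −0.37, where the other 15 libraries held 2.23 to 6.38. Over the 8 liver libraries the range of log2 CPM was 2.32 for Arntl, 2.57 for Nr1d1, 3.89 for Per3 and 6.48 for Clock, beside a median range of 3.19 over all 14190 genes tested. In aorta the ranges were 1.60, 1.32, 1.06 and 4.73, beside a median of 2.48.

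**Figure D5:**
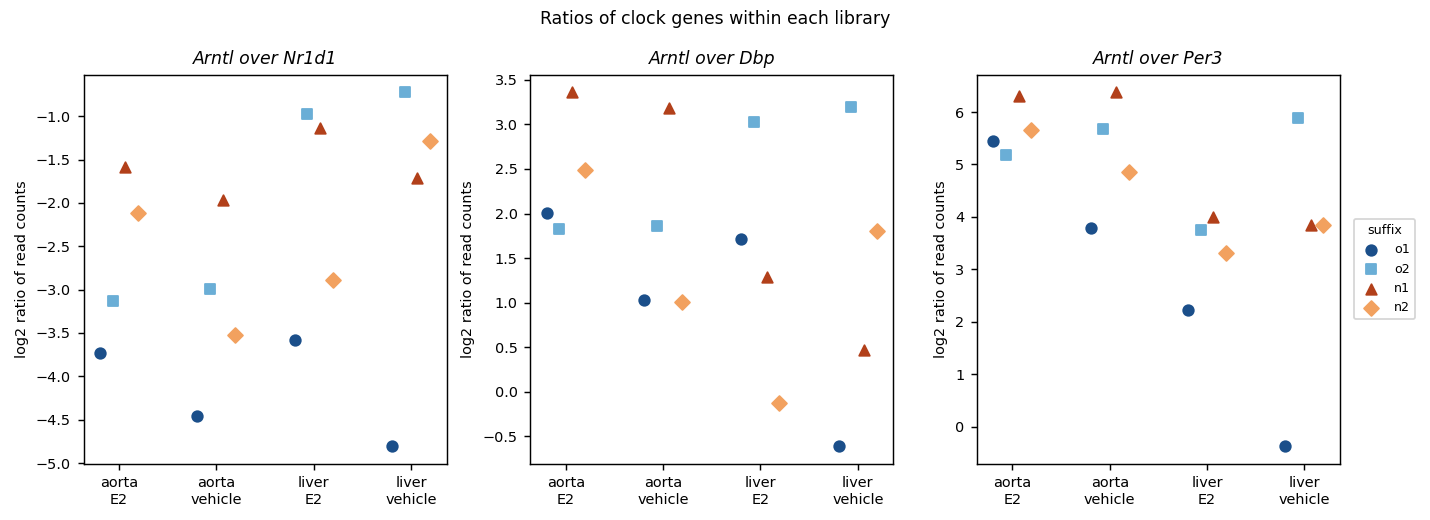
Log2 ratio of read counts of Arntl over Nr1d1, over Dbp and over Per3 in each library, by group and suffix. Library o1 has the lowest Arntl over Nr1d1 ratio in every group, at −4.80 in liver with vehicle.

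A further list held 26 symbols of the wider clock, 24 of them in the table. None passed for E2. In aorta 18 of 22 tested were higher, with a median log2 fold change of 0.10, beside 6670 of 13698 over all genes. None of the 22 had an unadjusted p under 0.05 (edgeR's quasi-likelihood test), and whether 18 of 22 exceeds chance was not tested. In liver 10 of 21 tested were higher, beside 5783 of 11726 over all genes. Between tissues 13 of 23 passed as higher and 2 as lower in aorta in E2 libraries, and 11 and 3 in vehicle libraries, beside the shares over all genes of 26.3% and 22.0% in E2 libraries and 24.1% and 23.4% in vehicle libraries. Bhlhe41, which encodes the E-box repressor DEC2, was higher in aorta, by 4.16 ± 0.42 in E2 libraries and 4.34 ± 0.54 in vehicle libraries. Csnk1e, a kinase of the PER proteins, was higher by 1.95 ± 0.33 and 1.64 ± 0.28, and Fbxw11, part of the ligase that marks them for breakdown, by 2.45 ± 0.45 and 2.28 ± 0.42. Ciart, a repressor gene of the clock, was higher by 2.98 ± 0.52 in E2 libraries, and Ccrn4l, which encodes nocturnin, by 2.69 ± 0.39 in vehicle libraries. Fbxl21, which encodes a ligase subunit for the CRY proteins, was lower in aorta by −5.23 ± 0.78 and −5.16 ± 0.71. The adjusted p by edgeR's quasi-likelihood test lay between 3.01e-05 and 0.00144 for these values. Fbxl21 did not pass the count filter in the fits of aorta alone, nor Ciart in those of liver alone. Each thus entered the tissue comparisons through the tissue where it was high, so its direction there was largely set by the filter.

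By letter, 5 of 22 listed genes passed as higher and 8 as lower in n libraries of aorta, and 3 and 11 of 21 in liver, beside the shares over all genes of 33.0% and 28.1% in aorta and 33.7% and 35.7% in liver. Nr1d2, the relative of Nr1d1, was lower in n libraries by −2.68 ± 0.38 in aorta and −5.06 ± 0.36 in liver. Rora, the ROR activator, was lower by −4.30 ± 0.50 and −4.57 ± 0.34, and Bhlhe41 by −4.57 ± 0.25 and −4.34 ± 0.57. In aorta Hlf, a D-box factor, was lower by −1.85 ± 0.28, and in liver Fbxw11 was lower by −3.06 ± 0.29 and Csnk1d, another PER kinase, by −1.74 ± 0.22.

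Profiles over the 16 libraries were compared by the root mean square difference of log2 CPM, each gene centred on its mean, among 14190 genes. The genes nearest to Arntl were Rab12 (0.381), Morf4l2 (0.402), Rdh10 (0.431) and Rbm7 (0.431), beside a median distance of 1.62 over all genes. Nearest to Per1 were Foxo3 (0.342), Eif4g1 (0.367), Rabl6 (0.385) and Ptpra (0.403), with a median of 1.49, and nearest to Dbp were Crtc2 (0.395), Noa1 (0.426), Rbm8a (0.445) and Ttc27 (0.446), with a median of 1.55. None of these is a clock gene of the lists used here, and the libraries share tissue and letter, so likeness describes these 16 profiles only.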

How the data were processed

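The authors deposited a table of reads counted per gene and library. Because a percentage stands on the last line of every column, these deposited values are handled under the unit of expected counts, though all gene values were whole. The 8 lines that name no gene were left out (reads outside annotated genes made up 48.0% to 75.2%). The submitters' processing notes name, with no role, Bowtie 0.12.5, HTSeq 0.4.5p7, edgeR 3.4.2 and the build mm9. The annotation, the strand setting and any read filter are not stated there. Columns were assigned to groups by tissue and treatment.

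Counts were tested with edgeR 4.0.16 (glmQLFit, glmQLFTest, TMM, R 4.3.3) over all genes after filterByExpr (minimum count 10, minimum total 15), which all 10 clock genes passed. Batch (o1, o2, n) was a covariate in the comparisons of treatments and of tissues, and treatment in those of n with o. These batch levels follow protocols that name Ovation libraries on different instruments, and TruSeq libraries. They take o as Ovation and n as TruSeq, an assumption that no source used here states. SE was obtained from the log2 fold change and the F statistic. Since nothing ties libraries to animals, p-values measure only the spread between these libraries. The comparisons of n with o had no term for suffix, so libraries with a common suffix counted as independent there. If such libraries are related, those p-values may be too small and the shares of genes passing by letter too large. DESeq2 1.42.0 and limma 3.58.1 were alternatives. The tests were tried on simulated counts drawn independently, with planted changes and without batch or suffix effects. That trial checks the steps only, and cannot show how the tests behave on libraries that split by letter. Deviations of libraries with the same suffix from their letter's mean correlated at 0.34 (o) and 0.31 (n) in aorta. In liver they correlated at 0.16 (o) and −0.058 (n). The batch covariate matched o libraries by suffix and n libraries by letter only, in both tissues. The replicate block, an alternative, matched all libraries by suffix. Such pairing is an assumption, and the correlations were lower in liver than in aorta. The clock genes and lists were chosen with earlier results of these data known. All 10 clock genes are named in every comparison; of the wider list, those past the threshold, or the 6 with the smallest p where more passed, except for a few that are not reported here.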

Additional observations from a re-analysis of the deposited data

Results flagged for a closer look

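In 6 of 40 combinations of a clock gene and a group, 1 library stood farther from the other 3 in CPM than a Dixon test at 95% allows. The share of all genes for which this held was not counted, so the count is no result about clock genes. Each group mixes o and n libraries, and the genes share their libraries, so the 40 checks are not independent. All 6 were in liver. Library o2 of liver with E2 held the high value of Npas2, at 25.3 CPM, and of Per2, at 38.2 CPM. Library n1 of liver with E2 held the high value of Per1, at 131 CPM. Library o1 of liver with vehicle held the high values of Per3, at 18.4 CPM, Cry2, at 19.4 CPM, and Nr1d1, at 401 CPM. The cause of these values was not tested.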

How the results depend on the processing

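With 1 library left out at a time, 551 of 640 log2 fold changes of clock genes kept their direction and their side of the threshold, 12 lost the threshold, 12 gained it and 65 changed sign. Under the other settings the counts were 615 of 705, 16, 13 and 61. Except for n against o, leaving out either library of an o1 or o2 pair is nearly the same exclusion. The 640 values are thus not all separate checks. No value past the threshold changed sign, and no clock gene passed for E2 under any setting run. The settings without suffix o1 were chosen after seeing the data. Leaving Rn45s out moved the median of all genes for aorta over liver with vehicle to 0.19, beside 0.054 with it. With E2 that median moved the other way, to 0.068 without Rn45s, beside 0.16 with it. With the replicate block no clock gene gained or lost a call. Where a value turned or a count moved, the cause was not tested. Depth limits the low counts: Per3 held 437 reads over the 16 libraries, and the lowest library of Per3 held 4, that of Clock 7 and that of Npas2 8. Values below are log2 fold changes unless they count genes.

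For E2 in aorta, with DESeq2 size factors Cry1 was at 0.0017, and with DESeq2 24 genes passed over all genes and Cry1 was at 0.00054. With limma voom Cry1 was at 0.080, and with no filter on low counts Cry1 was at 0.0090. With the replicate block 12 genes passed over all genes and Cry1 was at 0.066, and without the batch covariate Per3 was at −0.019 and Cry1 at 0.032. In o libraries alone 33 genes passed over all genes, Per1 was at 0.26, Per3 at −0.11 and Nr1d1 at 0.048, and in n libraries alone Cry1 was at 0.29. Without suffix n2 in both treatments 35 genes passed over all genes and Per1 was at 0.20, and without suffix o1 in both treatments Cry1 was at 0.082. For E2 in aorta, leaving out 1 library at a time gave genes passing, counted over all, 0 to 17, Clock −0.14 to 0.41, Per1 −0.30 to 0.20, Per3 −0.17 to 0.33, Cry1 −0.27 to 0.28 and Dbp −0.38 to 0.070.

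For E2 in liver, with DESeq2 size factors Arntl was at 0.0017 and Nr1d1 at 0.047, and with DESeq2 Arntl was at 0.0039 and Nr1d1 at 0.047. With limma voom Per2 was at 0.27, and with no filter on low counts 6 genes passed over all genes. Without the batch covariate Per2 was at 0.027 and Cry2 at −0.050, and in o libraries alone 5 genes passed over all genes, Arntl was at 0.30, Clock at 0.040, Per2 at 0.48 and Per3 at 0.045. In n libraries alone 1 gene passed over all genes, Npas2 was at −0.53, Cry1 at −0.18, Cry2 at −0.014, Dbp at 0.029 and Nr1d1 at 0.10, and without suffix n2 in both treatments Arntl was at 0.33 and Per3 at 0.12. Without suffix o1 in both treatments Npas2 was at −0.17, Per2 at 0.21, Per3 at 0.55, Dbp at 0.046 and Nr1d1 at 0.11. For E2 in liver, leaving out 1 library at a time gave genes passing, counted over all, 0 to 1, Arntl −0.29 to 0.20, Npas2 −0.19 to 0.40, Per1 −0.033 to 0.52, Per2 −0.91 to 0.20 and Per3 −0.86 to 0.56. It also gave Cry1 −0.080 to 0.38, Cry2 −0.18 to 0.27, Dbp −0.53 to 0.032 and Nr1d1 −0.18 to 0.098.

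For the E2 effect of aorta minus that of liver, with DESeq2 12 genes passed over all genes, and with the replicate block 1 gene passed over all genes. Without the batch covariate Nr1d1 was at 0.034, and in o libraries alone 2 genes passed over all genes, Npas2 was at −0.22, Per1 at 0.15, Per2 at −0.43, Per3 at −0.17 and Nr1d1 at 0.15. In n libraries alone Cry1 was at 0.46 and Dbp at −0.35, and without suffix n2 in both treatments 1 gene passed over all genes, Arntl was at −0.056, Per3 at −0.13 and Nr1d1 at 0.088. Without suffix o1 in both treatments Per3 was at −0.18 and Dbp at −0.17. For the E2 effect of aorta minus that of liver, leaving out 1 library at a time gave genes passing, counted over all, 0 to 4, Per1 −0.62 to 0.0031, Per3 −0.50 to 0.89, Cry1 −0.45 to 0.090, Dbp −0.22 to 0.38 and Nr1d1 −0.26 to 0.043.

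For aorta over liver with E2, without the batch covariate 0 clock genes passed and 2655 genes passed over all genes, and in o libraries alone Npas2 was at −0.15 and Cry2 at −0.44. In n libraries alone 7 clock genes passed and Dbp was at −0.13. For aorta over liver with E2, leaving out 1 library at a time gave clock genes passing 1 to 5. For aorta over liver with vehicle, without the batch covariate 0 clock genes passed and 2447 genes passed over all genes, and in n libraries alone Per2 was at −0.037 and Cry2 at 0.53. Without suffix o1 in both tissues Cry2 was at 0.35. For aorta over liver with vehicle, leaving out 1 library at a time gave clock genes passing 1 to 4, Npas2 −0.021 to 0.57 and Cry2 −0.47 to 0.35. For n over o in aorta, in E2 libraries alone Per2 was at 0.071, and without suffix o1 in both treatments Arntl was at −0.059 and Npas2 at −0.17. For n over o in aorta, leaving out 1 library at a time gave clock genes passing 1 to 3. For n over o in liver, in vehicle libraries alone Per2 was at 0.17, and in E2 libraries alone Cry1 was at −0.022. Without suffix o1 in both treatments Cry1 was at −0.10. For n over o in liver, leaving out 1 library at a time gave Npas2 −0.87 to 0.12 and Per1 −0.14 to 0.40.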

Other observations

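The log2 ratio of Cry1 over Cry2 reads was −0.15 in library o1 of liver with E2 and −0.76 in library o1 of liver with vehicle, and lay between 0.71 and 2.56 in the other libraries. The log2 ratio of Arntl over Dbp reads was lowest in library o1 of liver with vehicle, at −0.61, and in library n2 of liver with E2, at −0.12, and reached 3.36 in library n1 of aorta with E2. In the annotation Cry2 shares 3.43% of its exon bases with D930015M05Rik and Arntl shares 1.07% with Gm45355, both on the opposite strand.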
